A study of Zea mays with 12 samples.

Results

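Primary roots of maize kept without nitrogen but given TIS108 were compared with primary roots fed nitrate, over all entries of the expression table that reached 5 FPKM (fragments per kilobase of feature, scaled to the mapped fragments of the library) in at least 1 of the 2 groups. These were 15066 of 26451 entries, and the groups hold 6 of the 12 samples of the series. All plants were seedlings of the inbred line B73, germinated for 3 days in the dark and then grown for 24 h in nutrient solution. The nitrate group (+NO3) received 1 mM nitrate. The TIS108 group (-N_plus_TIS108) received no nitrogen and 2 µM TIS108. The other groups, used here as further readouts, were an N-deprived control (-N_control), with neither nitrate nor inhibitor, and roots given 1 mM nitrate with 10 µM PCIB (+NO3_plus_PCIB). Each group had 3 biological replicates, each pooled from 4 to 8 plants, but the values are 1 FPKM figure per entry and group. There is therefore no SD, standard error or p-value for any difference below, and the depth behind each value is unknown.

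Strigolactones are hormones made from carotenoids. Roots short of nitrogen or phosphate make and exude more of them, and they affect shoot branching, root growth and the contact with mycorrhizal fungi. TIS108 is a triazole compound that blocks their synthesis. Nitrate is both a nutrient and a signal in roots: it switches on genes for its own uptake and reduction within hours. PCIB (p-chlorophenoxyisobutyric acid) interferes with auxin action. The comparison asks how roots in which strigolactone synthesis is blocked without nitrogen differ from roots supplied with nitrogen. The groups differ in nitrate and in the inhibitor at the same time, so their shares in a difference cannot be told apart. In whole roots, fewer cells of a type and less RNA per cell cannot be told apart either.

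The 2 groups had similar profiles, with a few entries that were much lower in the TIS108 group. Of the 15066 entries, 12407 (82.4%) lay within 1.25-fold of each other on the FPKM + 1 scale, and the SD of the log2(FPKM + 1) differences was 0.31 across entries. A difference was counted at 2-fold or more on that scale. By this limit 204 entries differed, 1.35% of those compared: 114 were higher with TIS108 (0.757%) and 90 lower (0.597%). The balance turned with the size of the difference. At 1.5-fold 469 entries were higher and 286 lower with TIS108, whereas at 4-fold 4 were higher and 25 lower. All 8 entries that differed by 8-fold on the FPKM + 1 scale were lower with TIS108. This scale shrinks ratios at low levels. Zm00001d003380, higher with TIS108, is not among the 8 although its ratio of plain FPKM was 42.3. All 114 higher entries were nuclear gene models, which the sources used here do not pair with gene names. The 90 lower entries were 81 nuclear gene models, the microRNA locus MIR169c with its duplicate entry, the mitochondrial gene rrn5 and 6 further ENSRNA entries, which are genes for non-coding RNA in the Ensembl annotation.

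The choice of entries shaped these counts. The 14045 entries with 5 FPKM or more in both groups held 51 of the higher and 48 of the lower entries, 0.705% of them. The 531 entries that reached 5 FPKM with TIS108 alone held the other 63 higher entries, and the 490 that reached it with nitrate alone held the other 42 lower ones. Just inside the minimum stood an entry at 4.36 FPKM in nitrate-fed roots and 5.0 FPKM in TIS108 roots, and just outside it one at 4.71 and 4.999 FPKM.

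**Figure D1:**
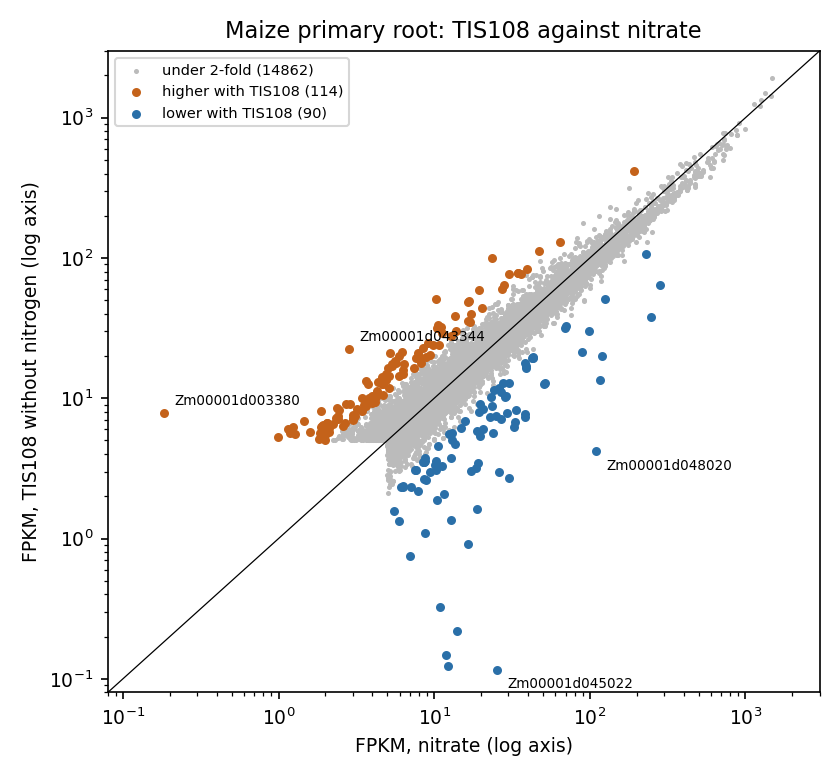
Each point is an entry with at least 5 FPKM in either group, with its FPKM in the nitrate group (x, log axis) and in the TIS108 group (y, log axis); the line marks equal values. The 90 entries lower with TIS108 reach farther from the line than the 114 higher ones, down to 0.116 FPKM. The widest ratios of FPKM were 218 on the lower and 42.3 on the higher side.

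On the nitrate side, a small set of nuclear gene models was close to silent in roots without nitrate. Zm00001d045022 stood at 25.4 FPKM in nitrate-fed roots and 0.116 FPKM in TIS108 roots, a ratio of 218. It was at 0.0465 FPKM in the N-deprived control and 12.6 FPKM with nitrate plus PCIB, so both groups with nitrate were high and both without were near 0. Zm00001d048020 stood at 109 FPKM in nitrate-fed roots and 4.18 FPKM in TIS108 roots, a ratio of 26.1. Its other values were 5.21 FPKM in control roots and 173 FPKM with nitrate plus PCIB. In all, 7 entries reached 5 FPKM with nitrate and were under 1 FPKM with TIS108. With nitrate they spanned 6.98 to 25.4 FPKM and with TIS108 0.116 to 0.908 FPKM. Their levels in the 2 groups not used to choose them were 0.0465 to 1.11 FPKM in the control, where 6 of the 7 were under 1 FPKM, and 3.83 to 19.4 FPKM with nitrate plus PCIB. The ranges of these 2 groups did not overlap in this set, which was chosen for extreme values in the other groups. Over all 15066 entries, 1.29% were 2-fold higher with nitrate plus PCIB than in the control.

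Over all 90 entries lower with TIS108, the median level was 19.5 FPKM in nitrate-fed roots and 5.57 FPKM in TIS108 roots. It was 7.24 FPKM in the N-deprived control and 12.99 FPKM with nitrate plus PCIB. That nitrate lies above TIS108 is fixed by the choice of the entries. Of the 2 groups not used for it, the one with nitrate had the higher median. Set against the control, nitrate gave a median log2 difference of 1.39 and TIS108 one of -0.15. Both of these share the control column, and each shares a further column with the comparison that chose the entries, so they are given side by side only.

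On the other side, the median level of the 114 entries was 4.61 FPKM in nitrate-fed roots and 12.8 FPKM in TIS108 roots, against 15.5 FPKM in control roots and 11.8 FPKM with nitrate plus PCIB. That nitrate lies below TIS108 is fixed by the choice of the entries, and the medians of the 2 groups not used for it were close to that with TIS108. Set against the control, nitrate gave a median log2 difference of -1.35 and TIS108 one of -0.11, again with a shared control column. The widest difference was that of Zm00001d003380, at 0.184 FPKM in nitrate-fed roots and 7.79 FPKM in TIS108 roots, a ratio of 42.3. This entry stood at 7.03 FPKM in control roots and 3.16 FPKM with nitrate plus PCIB. The next was Zm00001d043344, at 2.84 FPKM in nitrate-fed roots and 22.3 FPKM in TIS108 roots, a ratio of 7.86. Its control value of 21.2 FPKM was close to that with TIS108, while nitrate plus PCIB gave 146 FPKM, 51.5 times the level with nitrate alone. Only 2 entries reached 5 FPKM with TIS108 and were under 1 FPKM with nitrate, and both were at 7.03 FPKM or more in the control.

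**Figure D2:**
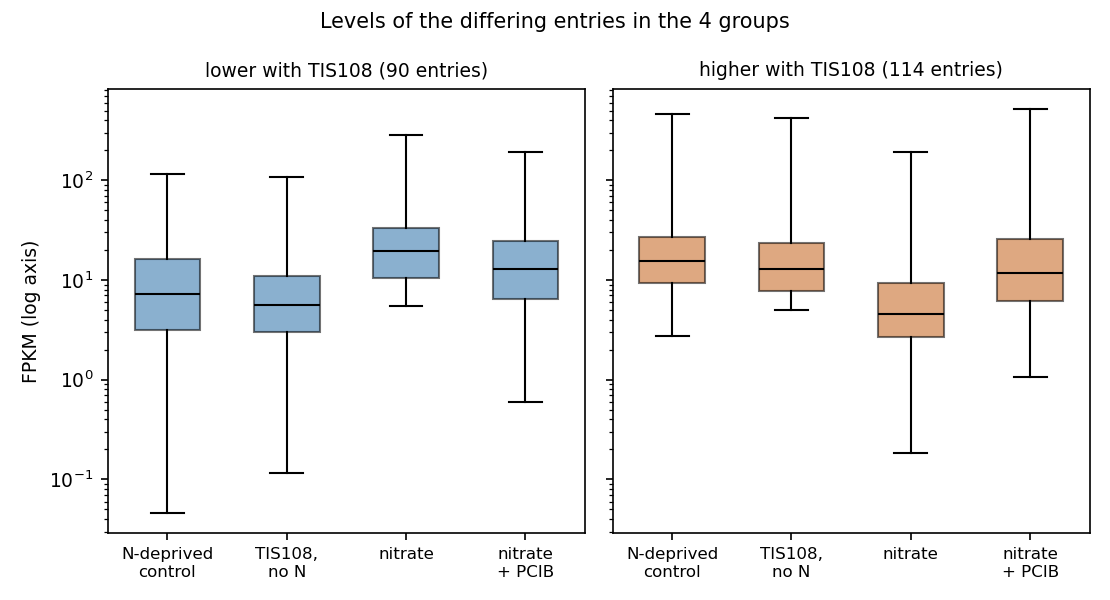
Boxes show the quartiles and median of FPKM (log axis) in each of the 4 groups, and whiskers the lowest and highest entry, for the 90 entries lower (left) and the 114 higher (right) with TIS108 than with nitrate. On the left both groups with nitrate have the higher medians (19.5 and 12.99 FPKM), and on the right nitrate alone has the lowest (4.61 FPKM). In both panels the order of nitrate and TIS108 is fixed by the choice of the entries.

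The comparison of nitrate plus PCIB with the N-deprived control sets a nitrate-fed against a nitrogen-free group and shares no sample with the TIS108 and nitrate columns. It was used to see how the differing entries stood in a separate pair, in which 429 of the 15066 entries (2.85%) met the 2-fold limit. Of all 15066 entries, 7538 were higher with nitrate plus PCIB than in the control and 7527 lower, by any amount. Of the 90 entries lower with TIS108 than with nitrate, 64 were higher with nitrate plus PCIB and 26 lower. By the 2-fold limit 43 were higher (47.8%), against 1.29% of all 15066 entries, and 7 were lower (7.78%), against 1.56%. Their median log2 difference was 0.98, beside 0.00 over all entries. All 25 entries lower by 4-fold with TIS108 were higher with nitrate plus PCIB than in the control, 23 of them by 2-fold, with a median log2 difference of 1.91. The 4 entries higher by 4-fold with TIS108 were split, with 2 higher and 2 lower in the separate pair and a median log2 difference of -0.01.

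Of the 114 entries higher with TIS108 than with nitrate, 76 were lower in the separate pair, against 7527 of all 15066 entries. By the 2-fold limit 29 were lower with nitrate plus PCIB than in the control (25.4%, against 1.56% of all entries). Another 8 were higher by 2-fold (7.02%, against 1.29%), and the median log2 difference was -0.37. No test of the gap between both lists was possible with 1 value per group. Among entries with 5 FPKM or more in both the TIS108 and the nitrate column, 18 of 48 lower entries were 2-fold higher with nitrate plus PCIB than in the control, and 10 of 51 higher entries were 2-fold lower. In the opposite direction, 5 of the 48 (10.4%) were 2-fold lower with nitrate plus PCIB than in the control, and 3 of the 51 (5.88%) 2-fold higher. Over those 14045 entries the shares were 1.05% higher and 1.23% lower.

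Read from the separate pair, a minority of the entries that met the limit there also met it between TIS108 and nitrate. Of the 194 entries higher by 2-fold with nitrate plus PCIB than in the control, 43 (22.2%) were lower by 2-fold with TIS108 than with nitrate, against 0.597% of all entries, and 8 (4.12%) were higher, against 0.757%. Most of the 194 were slightly higher with TIS108, with 111 above and 83 below nitrate and a median log2 difference of 0.10. Of the 235 lower ones, 29 (12.3%) were higher by 2-fold with TIS108 and 7 (2.98%) lower, with a median of 0.18. Across all 15066 entries the log2 differences of the pairs had a Pearson r of -0.10 and a Spearman rho of 0.09, with opposite signs. Across the 204 differing entries r was -0.56 and rho -0.53. These describe entries of 4 columns and are not relations over replicates.

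**Figure D3:**
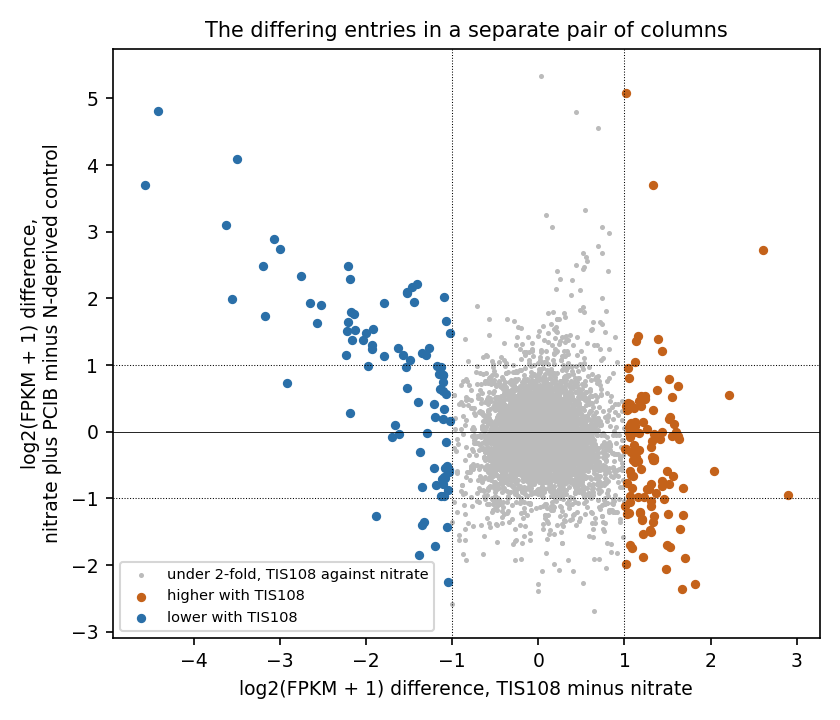
Each point is an entry, with the log2(FPKM + 1) difference of TIS108 minus nitrate (x) and of nitrate plus PCIB minus N-deprived control (y); dotted lines mark 2-fold. The entries farthest to the left, lower with TIS108 by 4-fold, all lie above 0 on the y axis, and the entries on the right spread to both sides, with 76 of 114 below 0.

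Of the 114 entries higher with TIS108, 9 came from a single run of neighbouring gene models, found after the values were seen. Maize gene models of this annotation are numbered in order along the chromosomes. The table holds 17 entries from Zm00001d049418 to Zm00001d049439, and all 17 were higher with TIS108 than with nitrate, 16 of them by 2-fold or more at any level. Their log2(FPKM + 1) differences ran from 0.85 to 1.64, and the ratio of FPKM had a median of 3.44 (range 2.72 to 7.95). The entries themselves were at very different levels, from 0.173 to 10.5 FPKM with nitrate. Nitrate was the lowest of the 4 groups in all 17. The control was at 1.66 to 2.65 times and nitrate plus PCIB at 2.01 to 5.93 times the nitrate value, and TIS108 was the highest group in 15.

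The run was picked out by these same differences. Its contrast with its neighbours and with other windows is therefore a description and no test. The 7 entries before the run and the 7 after it differed between TIS108 and nitrate by log2 values of -0.21 to 0.28. The nearest one before, Zm00001d049416, was at 30.3 FPKM in nitrate-fed roots and 28.7 FPKM in TIS108 roots, and the nearest after, Zm00001d049440, at 9.12 and 11.3 FPKM. Among the 26012 windows of 17 successive nuclear entries outside the run, the median difference lay between -0.30 and 0.31, whereas that of the run was 1.19. Without the run 105 entries were higher with TIS108. What the run reflects was not tested, and with 1 value per group an effect of the treatments cannot be told apart from a difference between the plants pooled in each group.

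Features that carry a name are microRNA loci and organelle genes. MicroRNAs are short RNAs cut from longer transcripts that pair with messenger RNAs and lower them. The values are reads over the loci in poly(A) libraries, so they speak of primary transcripts and not of mature microRNAs, and each locus has an ENSRNA entry of identical values. Of the 25 loci at any level, 13 were higher and 12 lower with TIS108. Their median log2 difference was 0.05, beside -0.01 over all 26451 entries. Of these loci 15 had 5 FPKM or more in either group, with 11 lower and 4 higher with TIS108. The median of these 15 was -0.23, beside -0.03 over all 15066 entries compared, and 1 of them met the 2-fold limit.

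That locus was MIR169c, whose family acts on the mRNAs of NF-YA transcription factors and responds to nitrogen supply in several plants. It was at 8.66 FPKM in nitrate-fed roots and 3.49 FPKM in TIS108 roots, a log2 difference of -1.11. With a pseudocount of 5 in place of 1 the difference was -0.69, short of the limit. Both groups without nitrate were below both with it, at 2.65 FPKM in control roots and 5.58 FPKM with nitrate plus PCIB. Its relative MIR169e was at 2.14 FPKM in nitrate-fed roots and 2.38 FPKM in TIS108 roots, a difference in the other direction. Among the copper-linked families, MIR398b, whose family targets copper superoxide dismutase genes, was at 1.75 FPKM in nitrate-fed roots and 3.74 FPKM in TIS108 roots. Its log2 difference was 0.79, and 1.06 with a pseudocount of 0.1. MIR408b, whose family targets genes of blue copper proteins, was at 5.56 and 5.13 FPKM, with the control at 2.204 FPKM and nitrate plus PCIB at 1.45 FPKM.

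Loci tied to root patterning and auxin split within families. MIR166d, from the family that restricts class III HD-ZIP genes of vascular and lateral organ patterning, was at 11.3 FPKM in nitrate-fed roots and 5.24 FPKM in TIS108 roots. Its log2 difference of -0.98 fell just short of the limit, and was -1.09 with a pseudocount of 0.1. The control was at 5.58 FPKM and nitrate plus PCIB at 8.61 FPKM. Both groups without nitrate were below both with it, as for MIR169c, an order whose share over all entries was not counted. MIR166a was at 3.05 FPKM in nitrate-fed roots and 3.66 FPKM in TIS108 roots. Of the MIR167 loci, whose family targets auxin response factor genes, MIR167g was at 5.73 and 3.36 FPKM and MIR167b at 7.499 and 5.72 FPKM, while MIR167d was at 2.42 and 2.86 FPKM. Here the separate pair did not go one way, since nitrate plus PCIB and the control stood at 1.76 and 2.60 FPKM for MIR167g and at 8.74 and 5.47 FPKM for MIR167b. MIR160b, of another family aimed at auxin response factor genes, was at 3.09 and 3.23 FPKM, and MIR393b, whose family targets auxin receptor genes, at 6.31 and 5.26 FPKM.

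The most abundant loci differed little. MIR164b, whose family targets NAC transcription factor genes, among them regulators of lateral root formation in Arabidopsis, was at 106 FPKM in nitrate-fed roots and 114 FPKM in TIS108 roots. MIR171f, whose family targets GRAS transcription factor genes, was at 40.8 and 49.6 FPKM, and only nitrate plus PCIB stood apart, at 15.8 FPKM. Of the MIR156 loci, whose family targets SPL genes of phase change, MIR156g was at 14.7 and 11.6 FPKM, MIR156k at 6.38 and 4.92 FPKM and MIR156f at 6.77 and 6.32 FPKM, while MIR156d was at 7.03 and 9.47 FPKM. MIR159a, whose family targets GAMYB genes, was at 14.9 and 13.98 FPKM, MIR159f at 5.95 and 6.19 FPKM, and the weakly expressed MIR159d at 0.706 and 1.71 FPKM. For MIR159d the log2 difference was 0.67, and 1.17 with a pseudocount of 0.1. MIR396d, whose family targets growth-regulating factor genes, was at 13.9 and 10.5 FPKM, with 12.6 FPKM in control roots and 16.4 FPKM with nitrate plus PCIB. The remaining loci were MIR396a, MIR164d, MIR319b, whose family targets TCP transcription factor genes, and MIR2275d, whose family triggers phased small RNAs in grass anthers. They had ratios of TIS108 to nitrate of 0.928 to 1.21.

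**Figure D4:**
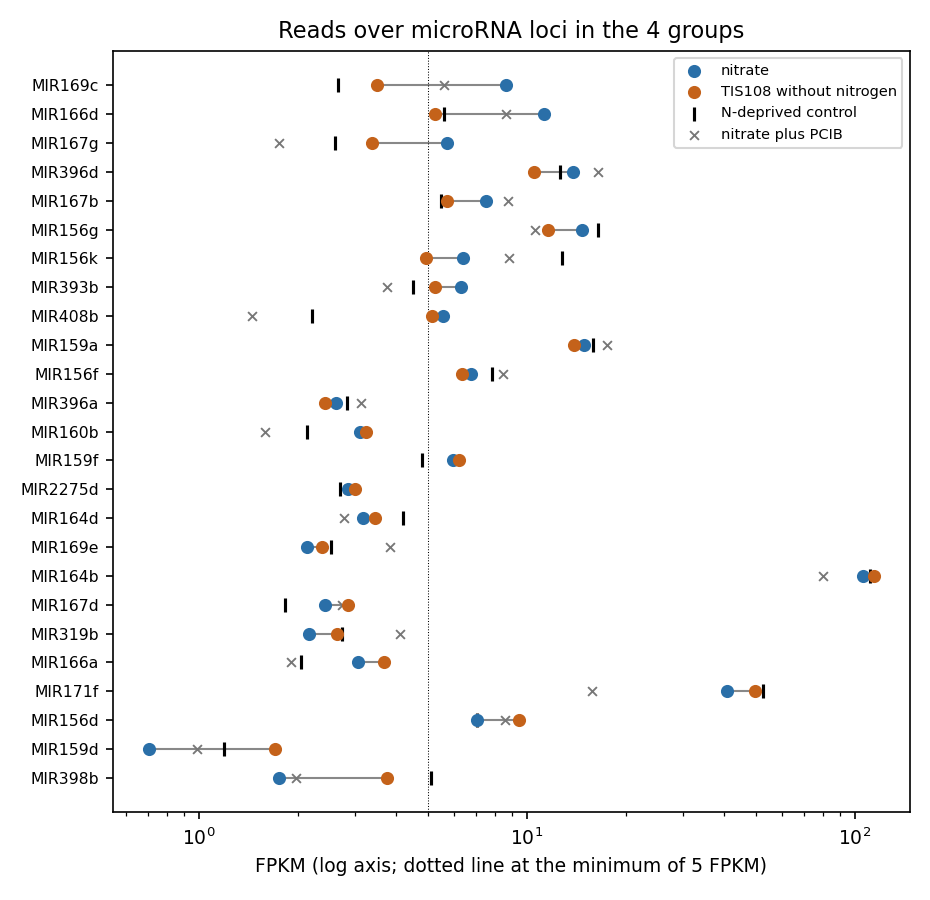
FPKM (log axis) over the 25 microRNA loci, ordered from the widest difference downward with TIS108 (top) to the widest upward (bottom); circles joined by a line are nitrate and TIS108, ticks the N-deprived control and crosses nitrate plus PCIB. MIR169c, MIR166d, MIR167b and MIR396d have both groups with nitrate to the right of both groups without it. MIR164b, MIR164d, MIR171f, MIR159d and MIR398b have the reverse. The share of all entries in either order was not counted, and neither order was tested. Most loci have nitrate and TIS108 close together.

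Mitochondrial genes, which encode parts of the respiratory chain, the ATP synthase and the mitochondrial ribosome, were lower with TIS108 than with nitrate almost throughout. Of 56 entries with distinct values 51 were lower and 5 higher (50 lower after scaling each column to a common sum and 54 after quantile normalization), and the median ratio of FPKM was 0.656, beside 0.992 over all entries. Plant mitochondrial RNA is largely without stable poly(A) tails, and levels in these poly(A) libraries were low: the median entry was at 1.95 FPKM in nitrate-fed roots and 1.23 FPKM in TIS108 roots. The control median was 1.86 FPKM and that of nitrate plus PCIB 2.46 FPKM, so TIS108 had the lowest of the 4. How the selection of poly(A) RNA worked in each library was not tested. In the separate pair the entries were split, with 30 higher and 26 lower with nitrate plus PCIB than in the control.

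Among the genes of respiration, those of the ATP synthase had the lowest median ratio. All 5 distinct ones were lower with TIS108, with a median ratio of 0.592. The gene atp9, for the membrane ring of the enzyme, was at 42.9 FPKM in nitrate-fed roots and 22.5 FPKM in TIS108 roots, and at 45.8 FPKM in control roots and 24.3 FPKM with nitrate plus PCIB. The gene atp8 was at 5.11 and 2.35 FPKM, and atp4 nearly alike at 4.82 and 4.48 FPKM. For atp8 the log2 difference was -0.87, and -1.09 with a pseudocount of 0.1. All 3 cytochrome c oxidase genes were lower: cox1 stood at 3.60 and 2.31 FPKM, cox2 at 5.07 and 3.70 FPKM and cox3 at 5.26 and 3.59 FPKM. Of the 5 NADH dehydrogenase genes 4 were lower, led by nad3 at 16.6 and 10.7 FPKM and nad4 at 2.06 and 1.12 FPKM, while nad6 was at 0.949 and 1.03 FPKM. The cytochrome b gene cob was at 2.91 and 1.91 FPKM.

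Ribosomal protein genes of the mitochondrion were lower in 9 of 10 cases, but by less, with a median ratio of 0.779. The most abundant, rps12, was at 60.6 FPKM in nitrate-fed roots and 39.8 FPKM in TIS108 roots, with 85.0 FPKM in control roots and 56.6 FPKM with nitrate plus PCIB. The mitochondrial entry past the 2-fold limit was rrn5, a small ribosomal RNA, at 13.1 and 5.61 FPKM, a log2 difference of -1.09 that shrank to -0.77 with a pseudocount of 5. The other ribosomal RNAs, rrn18 and rrn26, were under 0.3 FPKM in all 4 groups. The tRNA gene trnL-b was at 10.0 and 5.14 FPKM. Of 22 open reading frames 21 were lower, with a median ratio of 0.656. Among them were orf101-a at 17.4 and 13.1 FPKM, orf127 at 10.7 and 7.97 FPKM and orf99-d at 8.71 and 6.48 FPKM. Lower still were orf342 at 6.39 and 4.30 FPKM, orf396 at 5.78 and 3.82 FPKM and orf99-b1 at 5.04 and 2.72 FPKM. The widest difference was that of orf121-a-ct, at 2.13 and 0.709 FPKM, and orf110-c went the other way, at 0.664 and 0.924 FPKM. The entries orf99-b1 and orf99-b2, which differ in the nitrate column alone, were both counted.

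Plastid genes were few and at low levels. Among the markers of green tissue, the photosystem genes psbA and psaB read 0.609 and 0.0999 FPKM with nitrate and 0.433 and 0.0823 FPKM with TIS108, and rbcL, for the large subunit of the carbon-fixing enzyme, at 0.856 and 0.969 FPKM. Of 15 entries 12 were lower with TIS108 (10 after scaling to a common sum), with a median log2 difference of -0.11. Over all 26451 entries 51.8% were lower, with a median of -0.01. The widest were those of rpl16, a ribosomal protein gene, at 1.07 and 0.461 FPKM, and of the protease gene clpP at 1.38 and 0.724 FPKM. The entry at 5 FPKM or more, petA, for a cytochrome of photosynthetic electron transport, was at 5.17 and 5.58 FPKM, and cemA, an envelope membrane protein gene, was at 3.44 and 4.21 FPKM.

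The ENSRNA entries shifted downward as a class. Of 268 with distinct values, those repeating a microRNA locus left out, 238 (88.8%) were lower with TIS108 than with nitrate and 30 higher, the median log2 difference being -0.41 and the median ratio 0.730. Over all 26451 entries 51.8% were lower. The median level was 9.42 FPKM in nitrate-fed roots and 7.14 FPKM in TIS108 roots, and 9.01 FPKM in the control. With nitrate plus PCIB it was 7.30 FPKM, and in the separate pair 197 of the 268 were lower with nitrate plus PCIB than in the control. The 2 groups given an inhibitor had the lower medians. What this order reflects was not tested, nor was how the selection of poly(A) RNA worked in each library. Of the 203 with 5 FPKM or more in either group, 6 were lower by the 2-fold limit and 0 higher with TIS108 (2.96%, beside 1.35% of all entries compared). Of the 6, ENSRNA049457302 and ENSRNA049457279 differ in the nitrate column alone (6.30 and 6.13 FPKM) and were both counted. The most abundant of the 6, ENSRNA049478044, was at 43.4 FPKM with nitrate, 19.6 FPKM with TIS108, 28.4 FPKM in control roots and 16.1 FPKM with nitrate plus PCIB. The most abundant of the class, ENSRNA049469775, went the other way, at 1328 FPKM with nitrate, 1504 FPKM with TIS108, 1106 FPKM in control roots and 1530 FPKM with nitrate plus PCIB. ENSRNA049478044 and ENSRNA049469775 were chosen after their values were seen. The table gives no function for these entries.

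**Figure D5:**
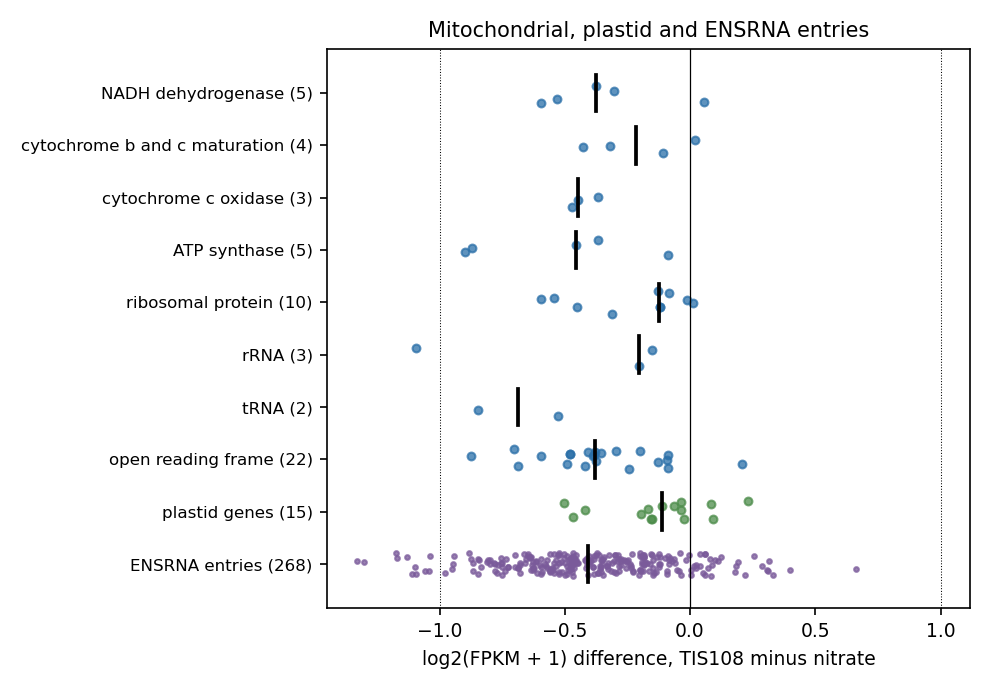
Points are entries and black bars medians of the log2(FPKM + 1) difference of TIS108 minus nitrate, for mitochondrial genes by role, plastid genes and ENSRNA entries, with the number of entries in brackets (mat-r and rbcL-ct are not drawn); vertical spread within a row is for display, and dotted lines mark 2-fold. Most points lie left of 0, and rrn5 is the mitochondrial entry beyond the left dotted line.

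The typical difference also shifted with level. Among entries with a mean of 5 to 10 FPKM the median log2 difference was -0.01, and 52.4% were lower with TIS108. Among the 719 entries at 100 FPKM or more it was -0.17, and 73.6% were lower. The 100 most abundant entries summed to 58480 FPKM in nitrate-fed roots and 52786 FPKM in TIS108 roots, which were 12.5% and 11.8% of their columns. The columns summed to 469344 and 447300 FPKM. FPKM is relative within a column, so a change in the total amount of RNA would not be seen.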

How the data were processed

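Poly(A) RNA of maize primary roots was sequenced as paired-end libraries, per the labels' protocols. The submitters' processing notes list CASAVA 1.8, Trimmomatic 0.39, TopHat2 2.0.13 and the build B73 RefGen_v4, with no role or order. The authors deposited 1 table of FPKM values with 1 column per group. The sources used here do not give how replicates were combined, the program, the annotation release, strand or filters. FPKM of short features is unstable.

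Groups came from the sample titles. The differences were taken as log2(FPKM + 1) with Python 3.11.15 and pandas 2.3.3, which understates low entries. The calling rule was run on simulated data with known 4-fold changes in well expressed entries. That simulation does not bear on calls near 2-fold or at low levels. The planned limma test needs replicate columns, so 0 tests were made. RefSeq genes (Zm-B73-REFERENCE-NAM-5.0) supplied names and no coordinates: 97 identifiers matched, and 0 of 26061 nuclear gene models, so lists of nuclear genes (nitrate, strigolactone, auxin and others) could not be filled. No sequences were at hand. Named are the 2 nuclear identifiers widest in each direction, every named feature past 2-fold, and in each named set the members at 5 FPKM or more and the widest differences; some low members were added. The entries, lists and limits were chosen with earlier results of these data known. The run of neighbouring gene models was found after the values were seen.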

Additional observations from a re-analysis of the deposited data

How the results depend on the processing

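The counts of differing entries depended on the settings, and with 1 value per group no setting adds a replicate check. Against 204 entries (114 higher, 90 lower), a pseudocount of 5 gave 80 (33 and 47), a limit of 1.5-fold 755 (469 and 286) and a limit of 4-fold 29 (4 and 25). The count was 261 with a pseudocount of 0.1, 290 with no minimum (118 of them lower), 138 with a minimum of 10 FPKM (67 and 71), 230 after scaling columns to a common sum (145 and 85), 202 after quantile normalization and 203 with identical entries counted once. The median of nitrate plus PCIB minus control was 0.65 over the lower and -0.27 over the higher entries with a pseudocount of 5. With pseudocounts of 0.1 and 5, the median difference was -0.58 and -0.15 for mitochondrial entries, -0.57 and -0.17 for NADH dehydrogenase, -0.71 and -0.18 for ATP synthase and -0.58 and -0.15 for open reading frames. It was -0.30 for ribosomal proteins with 0.1, and with 5 it was -0.23 for cytochrome c oxidase and -0.28 for ENSRNA entries. These low entries are compressed by a larger pseudocount. No median named so far in this section changed sign under the pseudocounts, rescaling or quantile normalization. The median over all entries compared did: it was -0.03 in the main setting and 0.04 after scaling columns to a common sum. No paired analysis was possible because the table has 1 column per group, and for the same reason no replicate could be left out.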
